A study of Mus musculus with 6 samples.

Results

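The genes described here are 10 that mark or direct the differentiation of spermatogonia, the mitotic germ cells of the testis. They are Kit, Stra8, Sohlh1, Sohlh2, Dmrt1, Dmrtb1, Rhox13, Ctcfl, Uchl1 and Lmo1, taken by symbol from a gene table of 24495 symbols. All 10 are in the table and all 10 passed the filter on low counts, which 14855 symbols passed. RNA had been sequenced from mouse spermatogonial stem cells of the DBA2 strain, isolated from testes at postnatal days 5 to 8 and grown in culture. One group of 3 libraries came from cells given 2 uM EPZ5676, an inhibitor of the histone H3 lysine 79 methyltransferase DOT1L, and the other group of 3 from cells given 0.2% ethanol as control, each for 2 weeks. Whether the EPZ5676 cultures also received ethanol is not stated. The cells of both groups carried no stated allele or transgene. The series calls the libraries biological triplicates, and no label says whether they came from separate animals or cultures, so p-values measure the spread between these libraries.

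Spermatogonial stem cells renew themselves in response to GDNF and, on retinoic acid, pass into differentiating spermatogonia that later enter meiosis. KIT, a receptor tyrosine kinase for stem cell factor, is the usual surface marker of that step, and STRA8 is induced by retinoic acid and is needed for entry into meiosis. SOHLH1 and SOHLH2 are basic helix-loop-helix transcription factors that can pair with each other and that are needed for differentiation and Kit expression. DMRT1 and DMRTB1 (also called DMRT6) are DM-domain transcription factors. DMRT1 holds back premature meiosis in spermatogonia, and DMRTB1 is needed for the orderly step from mitosis to meiosis. RHOX13 is a homeobox protein of differentiating germ cells, CTCFL (BORIS) is the germ-cell paralog of the insulator protein CTCF, UCHL1 is a deubiquitinase long used as a spermatogonial marker, and LMO1 is a LIM-domain cofactor.

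Stretches upstream of the starts of 3 of these genes are shown after a search for motifs usually discussed for them. They come from the RefSeq promoter table on GRCm38.p6, a newer build than the mm9 named in the submitters' processing notes, and the count data say nothing about binding to them. Kit and Sohlh1 were searched for the E-box CANNTG, the motif class of helix-loop-helix factors. Stra8 was searched for the retinoic acid receptor half-site AGGTCA, and each search covered both strands. Capitals mark the matches, of which the Kit stretch held none. The Kit stretch is chr5:75574737-75574915, plus strand, from 250 to 72 bases before the start. The Sohlh1 stretch is chr2:25847249-25847498, minus strand, the 250 bases before the start. The 2 Stra8 stretches of 30 bases are chr6:34920742-34920771 and chr6:34920898-34920927, plus strand, and lie in an annotated exon of a Stra8 transcript with an earlier start.
Kit: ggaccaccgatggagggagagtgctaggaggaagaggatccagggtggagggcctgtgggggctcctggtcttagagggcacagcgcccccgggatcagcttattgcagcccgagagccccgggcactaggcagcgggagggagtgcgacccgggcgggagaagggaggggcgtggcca
Sohlh1: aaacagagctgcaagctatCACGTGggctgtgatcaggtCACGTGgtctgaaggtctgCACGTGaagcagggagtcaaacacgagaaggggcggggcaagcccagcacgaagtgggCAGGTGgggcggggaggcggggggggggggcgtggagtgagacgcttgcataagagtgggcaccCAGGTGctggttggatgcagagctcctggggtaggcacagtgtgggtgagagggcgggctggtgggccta
Stra8, first half-site: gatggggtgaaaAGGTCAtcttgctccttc
Stra8, second half-site: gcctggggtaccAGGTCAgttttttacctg

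The Sohlh1 window held 5 CANNTG matches, of which 3 were the palindrome CACGTG. At least 1 CANNTG occurred in 66.2% of 32851 upstream windows of 250 bases, at least 5 in 1.15%, and at least 3 CACGTG in 0.0609%. The Stra8 window held AGGTCA 2 times, as did 1.36% of windows or more often, while 14.0% held it at least once. The Kit window of 250 bases held 0 CANNTG matches, which says only that these letters are not in that window.

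Gene counts totalled 17784332 to 54645903 per library. EPZ5676 replicate 2 was the deepest, and the other 5 libraries lay between 17784332 and 21046473. Germ cell identity of the cultures was checked with 9 markers, all of which passed the filter, and their summed level was 3949 to 4256 CPM (counts scaled to a common library size by TMM) with EPZ5676 and 3808 to 4305 CPM with ethanol. Both replicate 2 libraries stood apart from the other 4 in many genes, as the members below also show. Libraries with the same replicate number deviated together from their group means, with correlations across genes of 0.411, 0.614 and 0.335. Replicates 1 and 3 also correlated across numbers, at 0.278 and 0.149, so beyond replicate 2 the numbers separate the pairs less clearly. Values are therefore also given by pair (EPZ5676 minus ethanol of the same number, on the log2 CPM scale).

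Ordered by level per kilobase of transcript, Uchl1 was the most abundant of the 10, with a mean over the 6 libraries of 786 CPM per kb. Dmrt1 followed at 229 and Sohlh1 at 177 CPM per kb. Stra8 at 115 and Sohlh2 at 98.6 CPM per kb overlapped in their ranges over libraries. Kit at 29.1 and Rhox13 at 24.0 CPM per kb overlapped as well. The order of their means depends on the length used, here that of the principal transcript. For Kit this was 5214 bases, where all its annotated exons together cover 8911, while Rhox13 had 876 by both. Over all exons the Kit mean would be the lower. Lmo1 came next at 11.3 CPM per kb, and Dmrtb1 at 4.59 and Ctcfl at 2.19 CPM per kb overlapped at the bottom of the order. No other neighbours in this order overlapped. The lowest counts, 100 for Ctcfl and 102 for Dmrtb1, carry a counting error of 10% and 9.90% (coefficient of variation).

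**Figure D1:**
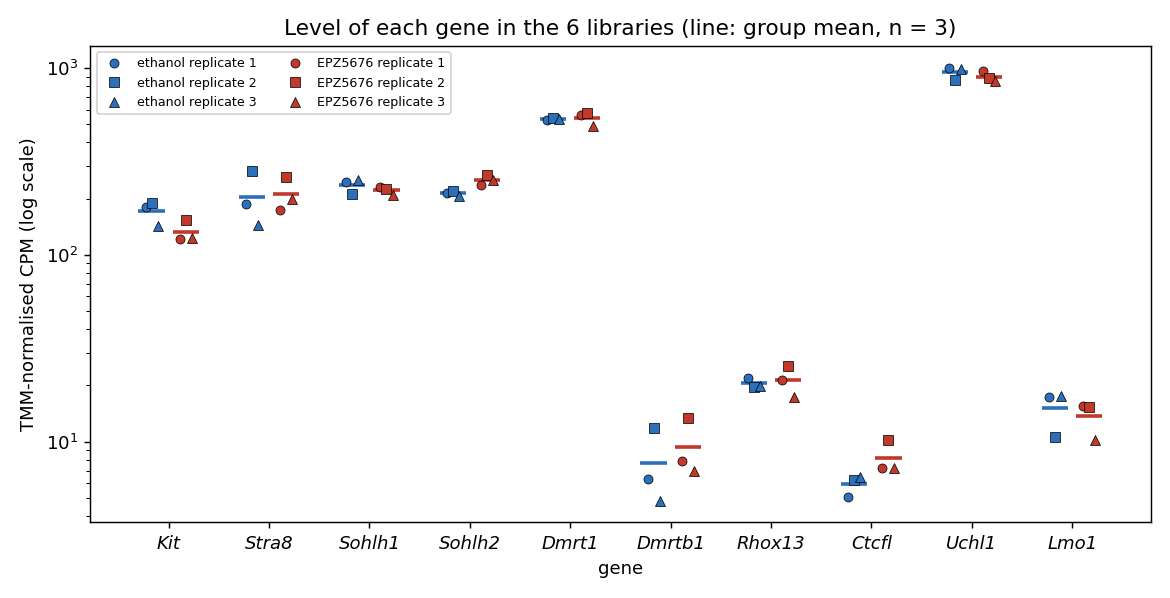
Each point is 1 library's level of a gene in TMM-normalised CPM on a log axis, blue for ethanol and red for EPZ5676, with the replicate number as the marker shape and a line at the group mean (n = 3). The groups are clear of each other in Sohlh2 and Ctcfl. Both replicate 2 libraries are the highest of their group in Kit, Stra8, Sohlh2, Dmrt1 and Dmrtb1.

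Across the 10 genes, the comparison asked whether 2 weeks of DOT1L inhibition shifted the transcripts of spermatogonial differentiation. Kit had a lower mean with EPZ5676, Sohlh2 and Ctcfl had higher means, and Stra8 had nearly equal means. By edgeR (quasi-likelihood, Benjamini-Hochberg over all genes tested) 0 of the 10 passed an adjusted p of 0.05, where 0% of all genes did. DESeq2 and limma-voom also called 0 of the 10, where they called 50 and 0 of all 14855 genes. With the replicate number as a block, edgeR again called 0 of the 10, where 0.653% of all genes passed. With that block limma-voom called 0 of the 10 and 29 of all genes. DESeq2 with the block called 1 of the 10, Kit, and 293 of all genes. At an unadjusted p under 0.05, Kit, Sohlh2 and Ctcfl were found without the block, where 7.41% of all genes were. With the block Dmrtb1 joined them, where 18.5% of all genes were. Median log2 fold changes were 0.036 over the 10 genes and -0.0066 over all genes, with 6 of the 10 above 0 and 4 below.

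Kit was at 121, 153 and 123 CPM in EPZ5676 replicates 1, 2 and 3. It was at 179.5, 190.0 and 144 CPM in ethanol replicates 1, 2 and 3. Every EPZ5676 library was lower than the ethanol library of its own number, but the groups overlapped, since EPZ5676 replicate 2 was above ethanol replicate 3. Mean Kit was 132 ± 17.98 CPM under the inhibitor against 171 ± 24.3 CPM in controls (SD, n = 3), or 1.29-fold lower. The pair differences were -0.57, -0.31 and -0.23 for pairs 1, 2 and 3, so the direction was shared and the size was largest in pair 1. By edgeR, Kit had a log2 fold change of -0.37 ± 0.13 (SE), a 95% interval of the fold of 0.630 to 0.951, an unadjusted p of 0.0208 and an adjusted p of 0.625. With the replicate block the estimate was -0.37 ± 0.072 with an adjusted p of 0.0586, just over the threshold of 0.05.

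The Kit call under the block depended on which pair was in the fit. Without pair 2 the blocked edgeR fit gave an adjusted p of 0.00397, and without pair 3 it gave 0.00264. Without pair 1 it gave 0.53 with a log2 fold change of -0.27. These 3 fits called 795 of 14822, 761 of 14912 and 0 of 15002 genes tested, so the dependence was not particular to Kit. Each has fewer residual degrees of freedom than the 2 of the full blocked fit. Among tools applied with the block, DESeq2 called Kit at an adjusted p of 0.00511, and limma-voom did not, at 0.0641. The negative direction held in all 20 alternatives, whose values ran from -0.49 to -0.27 on the log2 scale. In a bulk sample, fewer KIT-positive cells and less Kit RNA per cell cannot be told apart. Gene counts also cannot tell full-length Kit from the truncated Kit transcript of late germ cells.

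Kit is also expressed by mast cells, melanocytes and Leydig cells, so their markers are given beside it. Summed mast cell markers were at 0.869 to 2.72 CPM with EPZ5676 and 1.52 to 2.03 CPM with ethanol, with 1 of 7 passing the filter. Summed melanocyte markers were at 8.19 to 9.41 and 8.96 to 10.98 CPM, with 2 of 5 passing it. Summed Leydig markers were at 5.71 to 7.07 CPM with EPZ5676 and 8.21 to 10.6 CPM with ethanol, so these groups did not overlap. Star, the steroidogenic cholesterol transporter and the 1 of 8 Leydig markers that passed the filter, made up most of that sum, at 5.63 ± 0.606 and 8.05 ± 1.41 CPM (SD, n = 3). Lhcgr, the luteinising hormone receptor gene and also a Leydig marker, had a count of 0 in all 6 libraries. Summed marker levels do not measure how much Kit RNA such cells carry, and the part of these cells in the Kit difference was not tested. Fibroblast markers lay in the same direction as Kit, with 17 of 20 below 0 and a median log2 fold change of -0.22, or -0.26 with the block. None of them passed edgeR's test in either fit. With the block 9 of the 20 had an unadjusted p under 0.05, 8 lower and 1 higher, where 18.5% of all genes had. Their summed levels overlapped, at 1507 to 1993 CPM under EPZ5676 and 1488 to 2601 CPM in the ethanol libraries, and their part in the Kit difference was not tested either.

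**Figure D2:**
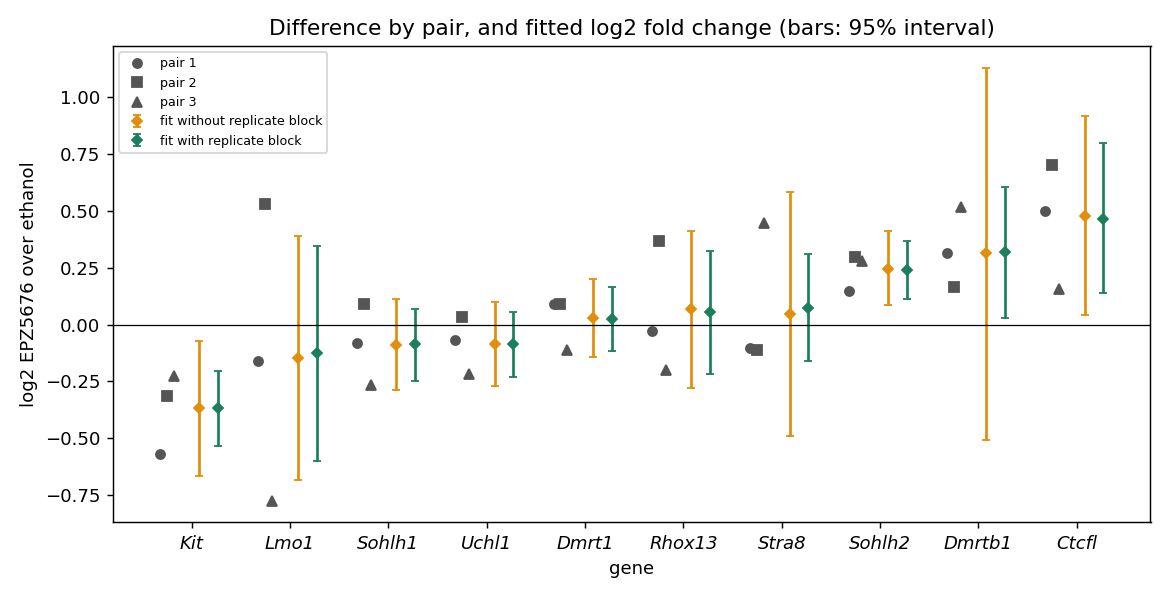
Grey markers show the log2 difference of each same-numbered pair, and coloured diamonds the fitted log2 fold change of EPZ5676 over ethanol with its 95% interval, without (orange) and with (green) the replicate block, for the 10 genes ordered by the blocked value. Kit lies below 0 and Sohlh2, Dmrtb1 and Ctcfl above 0 in all 3 pairs, whereas the pairs of Lmo1 range from -0.78 to 0.53.

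Stra8, the other retinoic acid marker, was at 174, 259.9 and 198 CPM in EPZ5676 replicates 1 to 3, against 187, 281 and 145 CPM in the ethanol replicates. The replicate 2 libraries were the highest in both groups and the groups overlapped fully. The mean was 211 ± 44.4 CPM under EPZ5676 and 204 ± 69.4 CPM in the ethanol libraries (SD, n = 3). Pair differences were -0.11, -0.11 and 0.45, so the pairs did not share a direction. Its log2 fold change was 0.046 ± 0.23 (SE) with a 95% interval of the fold that began at 0.712, and the adjusted p of edgeR's test was 0.977. The sign turned negative without EPZ5676 replicate 2 (-0.13), ethanol replicate 1 (-0.014) or ethanol replicate 3 (-0.15). The blocked interval of the fold was 0.895 to 1.24, so it held differences in Stra8 in both directions.

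Kit and Stra8 can be compared within a library as a ratio of counts, which does not depend on library scaling. That ratio, chosen after its values were seen, was 0.696, 0.588 and 0.619 in EPZ5676 replicates 1 to 3, against 0.961, 0.677 and 0.988 in the ethanol replicates. It was lower with EPZ5676 in all 3 pairs, and the groups overlapped because ethanol replicate 2 was below EPZ5676 replicate 1. An exact 2-sided permutation test of its log2 gave p = 0.2, where 3 against 3 libraries allow no value under 0.1.

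Sohlh2 gave the most even difference of the 10. It was at 238, 269 and 251.2 CPM in EPZ5676 replicates 1, 2 and 3. It was at 215, 219 and 207 CPM in ethanol replicates 1, 2 and 3. All EPZ5676 libraries were above all ethanol libraries, as was the case in one direction or the other for 14.9% of all genes tested, and for 2 of these 10. The mean was 253 ± 15.6 against 214 ± 5.95 CPM (SD, n = 3), a fold of 1.18 with a 95% interval of up to 1.33. Its log2 fold change was 0.24 ± 0.072 (SE), and edgeR's adjusted p was 0.596, or 0.0888 with the replicate block. The exact permutation test of log2 CPM gave p = 0.1, as it did for Ctcfl. That is the smallest value possible here and follows from the lack of overlap alone, so it adds nothing to it. In the blocked edgeR fit Sohlh2 passed only without pair 2, at an adjusted p of 0.0356, where 795 of 14822 genes tested passed.

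Its partner gene Sohlh1 had a slightly lower mean with EPZ5676. Sohlh1 was at 231, 225 and 209 CPM under EPZ5676 and at 245, 211 and 252 CPM in the ethanol libraries, in overlapping groups. Its log2 fold change was -0.090 ± 0.086 (SE), and edgeR's adjusted p was 0.846. The ratio of Sohlh2 to Sohlh1 counts was 1.14 ± 0.098 with EPZ5676 and 0.912 ± 0.11 with ethanol (SD, n = 3), and the exact permutation p of its log2 was 0.2. That ratio was also chosen after values were seen.

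Dmrt1, a DM-domain factor gene that acts in spermatogonia, was at 559, 574 and 492 CPM under EPZ5676 and at 524, 539 and 532 CPM in the ethanol libraries. The ethanol libraries agreed closely, with an SD of 7.35 CPM, and the EPZ5676 libraries fell on both sides of them. Dmrt1 had a log2 fold change of 0.026 ± 0.074 (SE), edgeR's adjusted p was 0.954, and the 95% interval of the fold reached 1.15. Dmrt1 is also a Sertoli cell gene. Summed Sertoli markers were at 80.1 to 102 CPM under EPZ5676 and 95.4 to 125 CPM in the ethanol libraries, with 8 of 13 passing the filter, 4 above 0 and 4 below. Trf, the transferrin gene, made up most of that sum, at 53.8 ± 6.91 CPM under EPZ5676 and 71.9 ± 10.1 CPM in the ethanol libraries (SD, n = 3). Its groups did not overlap, and edgeR's adjusted p was 0.596, or 0.0514 with the block. The Sertoli transcription factor genes Wt1 and Sox9 were at 23.5 ± 5.23 and 29.3 ± 8.98 CPM and at 5.05 ± 1.07 and 4.98 ± 1.16 CPM, EPZ5676 first, and the hormone and receptor genes Amh and Fshr had counts of 0 to 9 and 0 to 2. Their part in the Dmrt1 level was not tested.

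Dmrtb1, needed for the orderly step from mitosis to meiosis, was far lower and less even. It was at 7.93, 13.3 and 6.97 CPM with EPZ5676 and at 6.36, 11.9 and 4.84 CPM with ethanol, in replicates 1, 2 and 3. The replicate 2 libraries held the highest value of each group, and their mean was 1.93 times that of the other 4 libraries. All 3 pair differences were positive (0.32, 0.17 and 0.52), as all 3 pairs agreed in sign for 41.8% of all genes tested and for 4 of these 10. The log2 fold change was 0.31 ± 0.36 (SE) without the block and 0.32 ± 0.13 with it. The adjusted p from edgeR were 0.875 and 0.235. Single libraries moved the value without the block, which was -0.040 without EPZ5676 replicate 2 and 0.77 without ethanol replicate 2.

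Rhox13 was at 21.5, 25.4 and 17.4 CPM with EPZ5676 and at 21.97, 19.7 and 19.98 CPM with ethanol. The EPZ5676 libraries held both the highest and the lowest value. Rhox13 had a log2 fold change of 0.067 ± 0.15 (SE), and edgeR's adjusted p was 0.938.

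Ctcfl had the largest log2 fold change of the 10 and the lowest mean CPM in both groups. It was at 7.21, 10.2 and 7.21 CPM in EPZ5676 replicates 1, 2 and 3, from 141, 560 and 148 counts. It was at 5.09, 6.22 and 6.46 CPM in the ethanol replicates, from 100, 111 and 136 counts. The groups did not overlap, and the pair differences were 0.50, 0.70 and 0.16. The mean was 8.19 ± 1.70 against 5.92 ± 0.732 CPM (SD, n = 3), a fold of 1.39 with a 95% interval of up to 1.89. On the log2 scale this was 0.48 ± 0.19 (SE), and edgeR's adjusted p was 0.653, or 0.16 with the block. Without EPZ5676 replicate 2, the deepest library, the log2 fold change was 0.28, less by a factor of over 1.5, with an unadjusted p of 0.164 in edgeR's test. Without pair 3 the blocked edgeR test called Ctcfl, at an adjusted p of 0.0499, where 761 of 14912 genes tested passed. Ctcflos, an antisense gene that shares 5.32% of Ctcfl exon bases, had 12 to 77 counts per library.

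Uchl1 was at 961, 881 and 853 CPM under EPZ5676 and at 1006, 861 and 991 CPM in the ethanol libraries, so the groups overlapped. Uchl1 had a log2 fold change of -0.085 ± 0.082 (SE), edgeR's adjusted p was 0.847, and the 95% interval of the fold reached 1.07. The antisense gene Uchl1os, which shares 18.1% of Uchl1 exon bases, had only 3 to 66 counts.

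Lmo1 was at 15.6, 15.3 and 10.2 CPM with EPZ5676 and at 17.4, 10.6 and 17.6 CPM with ethanol. Low values were found in EPZ5676 replicate 3 and ethanol replicate 2, so the pairs went in opposite directions (-0.16, 0.53 and -0.78). The log2 fold change was -0.15 ± 0.23 (SE), and edgeR's adjusted p was 0.915.

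How far each gene followed treatment or replicate number was described by splitting the sum of squares of log2 CPM over the 6 libraries. Treatment held 82.0% of it in Sohlh2, 57.5% in Ctcfl and 55.7% in Kit, and 1.39% to 19.3% in the other 7. The mean over all tested genes was 23.6%. Replicate number held 86.9% in Dmrtb1 and 82.6% in Stra8, against a mean of 52.8% over all tested genes. In Lmo1, Sohlh1 and Rhox13, 70.6%, 54.1% and 50.8% belonged to neither. The 10 genes thus did not all vary together, though some did. Over the 6 libraries, log2 CPM of Sohlh1 correlated at 0.948 with Uchl1 and 0.945 with Lmo1, and that of Stra8 at 0.931 with Dmrtb1. Stra8 and Uchl1 correlated at -0.755. Stra8 and Dmrtb1 were highest in both replicate 2 libraries, while Uchl1 was lower there, with a mean of 871 CPM, than in the remaining 4, with 953 CPM. Fibroblast markers, a measure of cells that accompany such cultures, were also highest in the replicate 2 libraries, which summed to 1993 and 2601 CPM, while the remaining 4 libraries lay at 1488 to 1619 CPM. Their part in these differences was not tested.

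**Figure D3:**
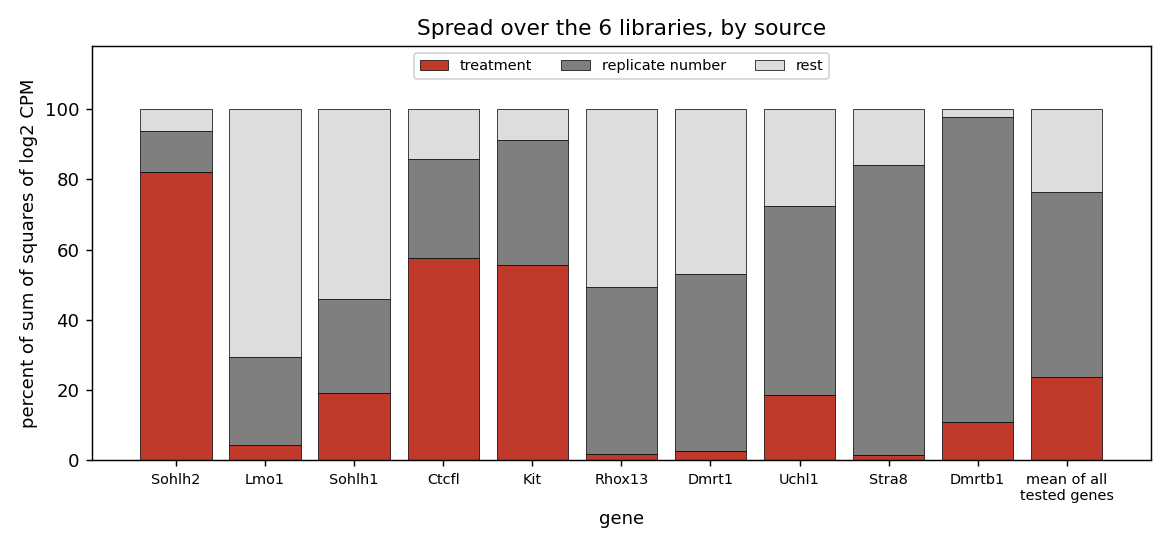
Each bar splits the sum of squares of a gene's log2 CPM over the 6 libraries into the percent held by treatment (red), replicate number (dark grey) and the rest (light grey), with the mean of all tested genes at the right. Sohlh2 is mostly red at 82.0%, and Dmrtb1 and Stra8 are mostly dark grey at 86.9% and 82.6%.

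Genes whose pattern was most like that of Kit, by Pearson's r of log2 CPM over the 6 libraries among 10685 genes averaging 5 CPM or more, were Rnf144a (0.991), Prokr1 (0.987), Gca (0.985), Tmem132c (0.982) and Fut11 (0.981). For Stra8 they were Fbxw17 (0.994), P3h1 (0.991), Gabra4 (0.988), Ssfa2 (0.987) and Map1a (0.985). With 6 points such values are common, since 151 genes had an r above 0.9 with Kit and 274 with Stra8, and the libraries share treatment, replicate number and depth. None of the 5 genes named for Kit or for Stra8 was a member of the 10. Among the 10, Dmrtb1 had an r of 0.931 with Stra8.

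Genes around KIT signalling were read from a fixed list of 25, all of which passed the filter. None passed in edgeR's test over all genes, without or with the block. Their median log2 fold change was -0.073, with 7 above 0 and 18 below, and 5 had an unadjusted p under 0.05 with the block, a share near the 18.5% of all genes. Kitl, the gene of the KIT ligand, was at 6.09 ± 1.47 CPM under EPZ5676 and 6.74 ± 1.04 CPM in the ethanol libraries (SD, n = 3). Pik3cd, a catalytic subunit of PI 3-kinase, and Ptpn11, which encodes the phosphatase SHP2, were the most abundant. From here on the EPZ5676 mean is given first and the ethanol mean second. Pik3cd was at 213 ± 32.5 and 248 ± 65.2 CPM and Ptpn11 at 178 ± 16.9 and 169 ± 16.9 CPM. Plcg1 and Pik3r1, which encode phospholipase C gamma 1 and the p85 alpha subunit of PI 3-kinase, are named after their values were seen. Both had groups that did not overlap and came close to the threshold with the block, Plcg1 with a log2 fold change of 0.34 and an adjusted p of 0.0517, Pik3r1 with -0.52 and 0.0546, by edgeR's test.

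Of 22 retinoic acid pathway genes, 21 passed the filter and none passed the test in either fit. The median log2 fold change was -0.060, with 9 above 0 and 12 below. Rarg, a retinoic acid receptor of spermatogonia, was at 116 ± 21.1 and 119 ± 14.1 CPM, and its partner Rxra at 120.0 ± 14.0 and 114 ± 8.41 CPM (SD, n = 3). With the block 9 of the 21 had an unadjusted p under 0.05, 4 higher and 5 lower, where 18.5% of all genes had.

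Of 21 other genes of progenitor and differentiating spermatogonia, all passed the filter and none passed the test in either fit. Their median was -0.093, with 8 above 0 and 13 below. Dazl, a germ-cell RNA-binding protein gene, was at 1769 ± 84.6 and 1695 ± 27.5 CPM, and Tex15, needed for silencing of transposons and for meiosis, at 684 ± 74.3 and 740.4 ± 36.8 CPM. Of 26 genes of undifferentiated spermatogonia, 24 passed the filter and none passed the test, with a median of -0.039, 10 above 0 and 14 below. With the block 9 of the 24 had an unadjusted p under 0.05 in edgeR's test, 2 higher and 7 lower, where 18.5% of all genes had. The groups did not overlap in 5 of the 24, where 14.9% of all genes had such groups. Of these 5, all named after their values were seen, Gfra1, Cdh1 and Cd9 were lower with EPZ5676 and Etv5 and Shisa6 higher. Gfra1, a GDNF receptor gene, had a blocked log2 fold change of -0.42, with an adjusted p by edgeR of 0.0611. Neurog3, of the progenitor list and also named after its values were seen, had 0.72 and 0.0637 in the same fit, with overlapping groups. Zbtb16 and Foxo1, transcription factors of stem and progenitor cells, were at 499.6 ± 94.9 and 486 ± 110.4 CPM and at 398 ± 40.4 and 403 ± 20.2 CPM.

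Of 21 meiotic entry genes, 19 were found in the table and passed the filter. Rec8, a meiotic cohesin subunit that depends on retinoic acid, was the only gene of the list called, and only with the block. In that fit 0.653% of all genes were called. It was at 72.0, 77.0 and 69.5 CPM with EPZ5676 and at 55.2, 57.4 and 46.6 CPM with ethanol, without overlap. Its log2 fold change was 0.46 ± 0.068 (SE) and edgeR's adjusted p was 0.0467 with the block and 0.504 without it. The list median was -0.016, with 9 above 0 and 10 below. With the block 6 of the 19 had an unadjusted p under 0.05 in edgeR's test, 4 higher and 2 lower, where 18.5% of all genes had. The most abundant members, Stag3 and Sycp1, which encode a cohesin subunit and a synaptonemal complex protein, were at 858 ± 75.6 and 832 ± 83.1 CPM and at 403 ± 45.5 and 392.3 ± 37.4 CPM.

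Paralogs and partners of the 10 were read from small fixed lists, in which no gene passed in either fit. Of 7 other DMRT genes 5 passed the filter, with a median of -0.24. Dmrtc2 and Dmrt3 were at 17.7 ± 4.26 and 12.7 ± 0.857 CPM and at 11.9 ± 2.999 and 14.2 ± 2.83 CPM (SD, n = 3). Of 29 other Rhox genes that the file lists, 12 passed the filter, with 11 above 0, 1 below and a median log2 fold change of 0.23. Rhox10 and Rhox1, the most abundant of them, were at 15.2 ± 0.405 and 16.5 ± 0.852 CPM and at 9.98 ± 0.698 and 8.82 ± 2.14 CPM. Rhox2, Rhox3 and Rhox4 copies are near-identical, so their counts can be shared or split and the number of genes above 0 is not a number of independent genes.

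Of 10 LMO partner genes 8 passed the filter, with a median of 0.11, 5 above 0 and 3 below. Ssbp3 and Ldb1, which encode the single-strand DNA-binding and LIM-domain-binding partners of LMO proteins, were at 206 ± 18 and 189 ± 29.4 CPM and at 162 ± 18.5 and 153 ± 11.5 CPM. The 3 other ubiquitin C-terminal hydrolases had a median of -0.035, with Bap1 at 322 ± 16.5 and 298 ± 28.3 CPM and Uchl3 at 38.9 ± 2.91 and 39.8 ± 2.34 CPM. Ctcf itself was at 137 ± 2.32 and 148 ± 22.1 CPM. Prss50, a testis protease gene reported as a CTCFL target, was at 2.51, 2.69 and 2.78 CPM with EPZ5676 and at 1.68, 1.79 and 1.66 CPM with ethanol. Its groups did not overlap, and its log2 fold change of 0.64 ± 0.20 (SE) gave adjusted p by edgeR of 0.596, and 0.152 with the block. Gal3st1, the other reported target in the list, named after its values were seen, was at 0.54 ± 0.26 and 0.33 ± 0.16 CPM, in overlapping groups. Its pair differences were 1.67, 0.01 and 0.03.

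**Figure D4:**
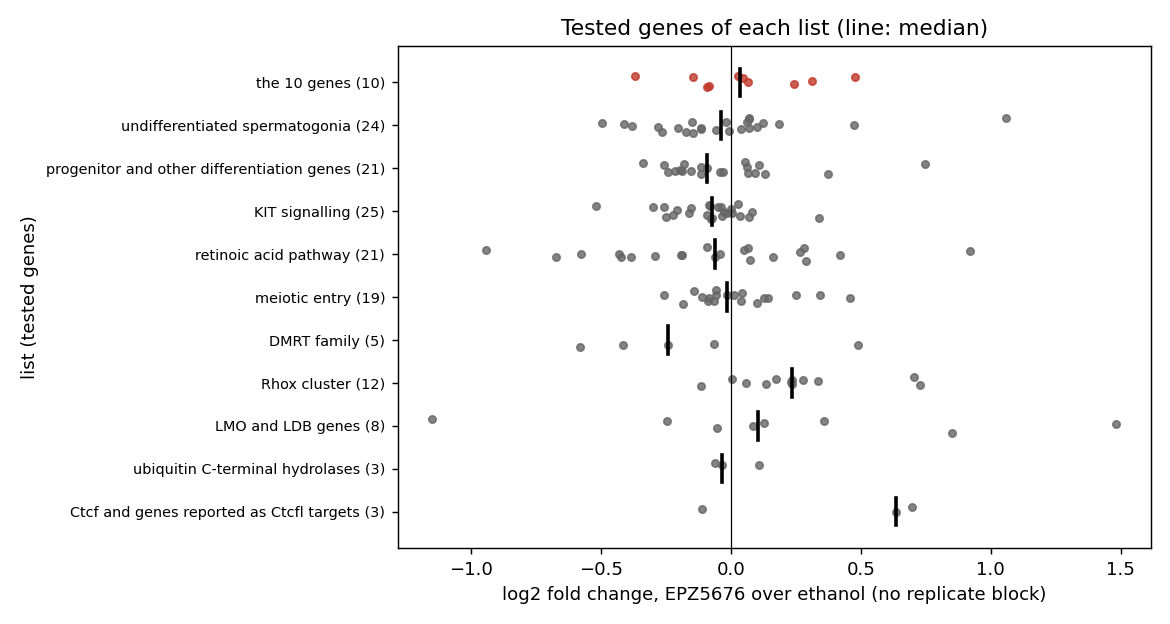
Each point is the log2 fold change of 1 tested gene (EPZ5676 over ethanol, no replicate block), red for the 10 genes and grey for the other genes of each list, with a black line at the list median and the number of tested genes in brackets. List medians lie between -0.24 and 0.23 apart from the 3-gene list of Ctcf and reported CTCFL targets, at 0.64, the value of Prss50.

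**Figure D5:**
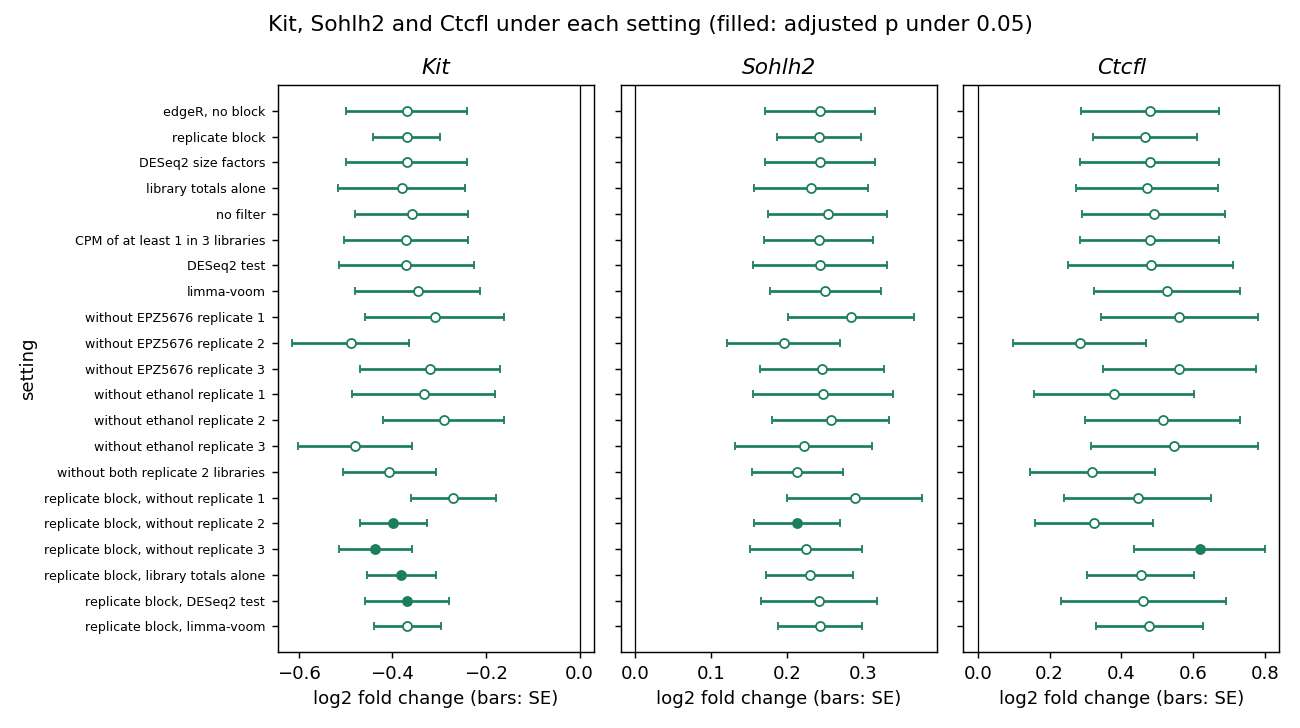
Log2 fold changes of Kit, Sohlh2 and Ctcfl with their SE under each setting of the fit, where filled points have an adjusted p under 0.05. Kit stays below 0 and Sohlh2 and Ctcfl above 0 in all 21 settings shown, and filled points occur only with the replicate block, 4 for Kit and 1 each for Sohlh2 and Ctcfl.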

How the data were processed

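RNA was measured in 3 EPZ5676 and 3 ethanol libraries, grouped and numbered by their titles. Per the labels' protocols, TRIzol was used for the RNA and a TruSeq stranded mRNA kit for the libraries. The authors deposited raw counts, as whole numbers for each gene symbol. The submitters' processing notes name STAR, featureCounts, edgeR and Bowtie as tools, and mm9 as the build. Tool versions, settings, annotation and use of strand: not given in the sources used here. The deposited table of repeat families was not used here.

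The deposited counts went, unchanged, into R 4.3.3, with filterByExpr, TMM scaling and edgeR 4.0.16 (quasi-likelihood, 2-sided, Benjamini-Hochberg over 14855 genes, threshold 0.05). The replicate number was added as a block in a second fit, since every same-numbered pair correlated above 0.1 (smallest 0.335). Replicates 1 and 3 also did so across numbers (0.278 and 0.149), and the labels do not explain the numbers. Residual degrees of freedom were 4 and 2. Log2 CPM used a prior count of 2. DESeq2 1.42.0 and limma 3.58.1 (voom) served as alternatives, beside other scalings, filters and left-out libraries. The smallest chi-square per degree of freedom between libraries was 3.64, so none was a copy of another. Transcript lengths are those of the principal transcript in GENCODE on GRCm38, and the authors' gene models may differ. Promoters were matched by symbol for 8 of the 10 genes. The edgeR fits were tested on simulated data.

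The members and lists were chosen with earlier results of these data known. Named beside the 10 are, per list, the 2 most abundant tested genes and any gene called in either fit, and the 5 genes most like Kit and Stra8. Others are marked as chosen after their values were seen, or stand as a partner, ligand or cell marker.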

Additional observations from a re-analysis of the deposited data

How the results depend on the processing

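Over all genes, edgeR called 0 without the block and 97 with the replicate block (48 higher, 49 lower). DESeq2 called 50 without the block, and 10 passed in edgeR without both replicate 2 libraries. With the replicate block, counts were 193 with library totals alone, 293 with DESeq2, 29 with limma-voom, 795 without pair 2, 761 without pair 3 and 0 without pair 1. Leaving out single libraries without the block gave 0 in each of the 6 fits, with unadjusted p under 0.05 in 609 to 1662 genes. The DESeq2 and limma-voom fits with the block were added after the data were seen.

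Of the 10 genes, 0 were called without the block under any alternative. With the replicate block, 2 were called without pair 2 (Kit, Sohlh2), 2 without pair 3 (Kit, Ctcfl), 1 with library totals alone and 1 with DESeq2 (Kit in both), and 0 without pair 1. Kit, Sohlh2, Ctcfl and Uchl1 kept their direction in all 20 alternatives. Signs of the other 6 turned, where none was called, and no scaling alternative turned one. With single libraries left out, Stra8 lay between -0.15 (without ethanol replicate 3) and 0.34 (without ethanol replicate 2) and was -0.13 without EPZ5676 replicate 2, -0.014 without ethanol replicate 1 and -0.11 in the blocked fit without pair 3. Sohlh1 was 0.0053 and Lmo1 0.19 in the blocked fit without pair 3, and Lmo1 was -0.46 in the blocked fit without pair 2 and -0.44 without both replicate 2 libraries. With single libraries left out and no block, Lmo1 lay between -0.35 (without ethanol replicate 2) and 0.019 (without EPZ5676 replicate 3). In the same fits Dmrt1 lay between -0.018 (without EPZ5676 replicate 2) and 0.089 (without EPZ5676 replicate 3). It was 0.093 in the blocked fit without pair 3, -0.0078 without both replicate 2 libraries, and -0.0105 and -0.011 in the blocked fits without pairs 1 and 2. With single libraries left out, Dmrtb1 lay between -0.040 (without EPZ5676 replicate 2) and 0.77 (without ethanol replicate 2), and Rhox13 was -0.078 without EPZ5676 replicate 2. Rhox13 was -0.11 without both replicate 2 libraries and -0.11 in the blocked fit without pair 2. The cause of these changes was not tested. Counts of 100 to 734 limit Dmrtb1 and Ctcfl.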
